A study of Mus musculus with 53 samples.

Results

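Sciatic nerve (SCN) expression of 10 genes associated with lipid-laden macrophages was examined across the 8 groups of the study. The genes are Itgad, Itgax, Mmp12, Adam8, Trem2, Gpnmb, Cd68, Atp6v0d2, Cd9 and Spp1. They were taken by symbol from the 49568 genes listed for each sample, and all 10 were found. The members were chosen by name with their differences by diet and by dietary reversal (DR) in these samples already known, so those differences are given as a description. Of the 53 samples, all from C57BL/6J mice, 5 came from mice on standard diet (SD), 7 from high-fat diet (HFD) mice and 5 from HFD mice given streptozotocin (HFD-STZ) at 16 weeks of age. The 24-week groups held 8 samples on SD, 7 on HFD and 8 on HFD-STZ, with 7 more after HFD-DR and 6 after HFD-STZ-DR. The HFD, with 60% of its energy as fat, began at 5 weeks of age and is the model of prediabetes. STZ, a toxin of pancreatic beta cells, was injected at 12 weeks of age at 75 mg/kg and again 3 days later at 50 mg/kg, which makes the model of type 2 diabetes (T2D). Every STZ group also received the HFD, so STZ was not studied on SD. The DR mice ate HFD until 16 weeks of age and a control diet for the last 8 weeks. Sequencing covered the whole nerve, in which macrophages are a minority of cells. The labels do not say that each sample is a different mouse, and the SDs and p-values measure the spread between these samples.

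Macrophages that take up lipid, in fat tissue, in arterial plaques and around dying myelin, switch on a set of genes that is often called the lipid-associated macrophage programme. Trem2, a surface receptor for lipids and lipoproteins, is needed for the full programme in fat tissue. Peripheral nerve holds resident macrophages in the endoneurium and the epineurium, and more enter from the blood when myelin breaks down. The epineurium also holds adipocytes.

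Values are the authors' normalized expression on a log2 scale, so a difference of 1 is a doubling of the normalized value. The normalization is not named, so for genes at low levels a fold of these values may differ from the fold in RNA. How many reads lie behind a value is unknown, so no error from counting is given. A value after ± is the standard deviation over the samples of a group. The nerve was checked against 6 markers of myelinating Schwann cells, whose mean log2 values lay between 17.44 and 18.45 in all 53 samples. The 6 general macrophage markers (Adgre1, Csf1r, Fcgr1, Aif1, Mertk and Cd14) lay between 9.16 and 10.68, and none was at 0. Skeletal muscle markers varied most, with sample means from 6.22 to 16.87, and adipocyte markers ran from 7.93 to 13.77. No pair of samples was identical. In a bulk nerve sample, more cells of a type and more RNA per cell cannot be told apart.

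The first group of genes codes for adhesion receptors. Itgad codes for integrin alpha D and Itgax for integrin alpha X (CD11c). Both pair with the beta-2 integrin chain Itgb2. They are neighbours on chromosome 7 of GRCm38, Itgax at 128129547 to 128150657 and Itgad at 128154376 to 128223816, both on the plus strand. The second group holds the proteases Mmp12, macrophage elastase (chromosome 9, 7344381 to 7369499, plus strand), and Adam8, a membrane-bound metalloprotease of leukocytes (chromosome 7, 139978932 to 139992562, minus strand). In the third group are Trem2 (chromosome 17, 48346401 to 48354147, plus strand), the lysosomal glycoproteins Gpnmb (chromosome 6, 49036546 to 49070929, plus strand) and Cd68 (chromosome 11, 69664213 to 69666153, minus strand), and Atp6v0d2 (chromosome 4, 19876841 to 19922605, minus strand), a subunit of the proton pump that acidifies lysosomes. The last group holds the tetraspanin Cd9 (chromosome 6, 125460266 to 125494791, minus strand) and Spp1, the secreted protein osteopontin (chromosome 5, 104435118 to 104441050, plus strand). All 10 are protein-coding genes.

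The promoters of 4 members are shown, 3 of them for the AP-1 letters that they hold. RefSeq promoter windows of GRCm38.p6 were found for 8 of the 10 genes. These 8 genes had 10 windows, with more than 1 each for Mmp12 and Spp1, so shares of genes and of windows are not alike. Itgad and Atp6v0d2 had no entry. The 250 bases before each start were searched on both strands for the motif of AP-1, a factor that drives many protease and activation genes in macrophages, written as TGANTCA. Mmp12, Itgax and Trem2 each held 1 copy and Cd68 held 2, so 4 of 8 genes had at least 1, beside 6.75% of all 32851 windows. Adam8 held none. The GAGGAA core bound by the macrophage factor PU.1 lay in windows of 4 of the 8 genes (Mmp12, Trem2, Spp1 and Cd68), against 23.3% of all windows. CACGTG, the letters of the lysosomal E-box, lay in none (6.02% of all windows). CATGTG, the core of the M-box, lay in those of Mmp12 and Cd9 (12.3% of all windows). None of these motifs contains another. A match is a description of these letters, not evidence that a factor binds there. RefSeq gives Mmp12 an upstream start as well, and the window shown is the downstream one. The GAGGAA core of Mmp12 lies in the upstream window. The AP-1 letters are in capitals, and Adam8 is shown as a member with a difference by diet but without them.
Mmp12 (chr9:7347124-7347373, plus strand): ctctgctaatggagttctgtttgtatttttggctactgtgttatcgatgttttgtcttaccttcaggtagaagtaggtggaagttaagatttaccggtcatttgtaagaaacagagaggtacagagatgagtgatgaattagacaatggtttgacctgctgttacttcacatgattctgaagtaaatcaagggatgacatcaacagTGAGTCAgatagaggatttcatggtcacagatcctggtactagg
Itgax (chr7:128129300-128129549, plus strand): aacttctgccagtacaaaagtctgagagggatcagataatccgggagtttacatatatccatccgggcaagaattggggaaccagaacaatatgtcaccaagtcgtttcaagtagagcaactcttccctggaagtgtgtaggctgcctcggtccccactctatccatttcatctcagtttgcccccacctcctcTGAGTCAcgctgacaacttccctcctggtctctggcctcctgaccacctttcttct
Cd68 (chr11:69666171-69666420, minus strand): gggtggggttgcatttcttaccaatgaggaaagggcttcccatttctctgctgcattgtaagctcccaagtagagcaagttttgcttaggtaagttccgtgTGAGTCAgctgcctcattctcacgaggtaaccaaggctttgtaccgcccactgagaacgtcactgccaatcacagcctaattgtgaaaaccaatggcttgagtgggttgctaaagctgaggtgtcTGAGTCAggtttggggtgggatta
Adam8 (chr7:139992563-139992812, minus strand): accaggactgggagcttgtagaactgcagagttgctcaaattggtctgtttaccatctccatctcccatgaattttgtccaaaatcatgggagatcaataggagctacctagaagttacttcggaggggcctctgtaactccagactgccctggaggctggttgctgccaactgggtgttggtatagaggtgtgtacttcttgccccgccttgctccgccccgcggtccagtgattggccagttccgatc

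Per kilobase of exon, Itgad had the lowest level of the 10 genes in SD nerves at 24 weeks, rank 17142 of 17556 genes, and was at rank 10134 in HFD nerves. At 16 weeks the 5 SD samples had log2 values of 3.47, 3.21, 3.4, 3.08 and 2.83. Among the 7 HFD samples of that age the lowest value was 3.55, the median 7.24 and the highest 9.75. Every HFD sample was thus above every SD sample, but the HFD samples were spread over most of the range of the gene. The 5 HFD-STZ samples of that age had 4.89, 4.23, 3.33, 4.01 and 5.68, lower than most HFD samples and overlapping SD. At 24 weeks the SD samples ran from 2.69 to 4.37 (median 3.41) and the HFD samples from 6.76 to 10.45 (median 8.94), again with no overlap. The HFD-STZ samples ran from 3.85 to 8.67 (median 6.78), with 1 of 8 within the range of SD. After DR, the HFD-DR samples ran from 3.2 to 7.88 (median 4.07) and the HFD-STZ-DR samples from 3.01 to 4.61 (median 3.56). Of the 7 HFD-DR samples, 6 were below every HFD sample and 1 was within their range. The group means of Itgad ran, from high to low, HFD at 24 weeks, HFD at 16 weeks, HFD-STZ at 24 weeks, HFD-DR, HFD-STZ at 16 weeks, HFD-STZ-DR, SD at 24 weeks and SD at 16 weeks, and the samples of every pair of neighbours in this order overlapped.

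Mmp12 was at rank 15586 per kilobase of exon in SD nerves at 24 weeks and at rank 7839 in HFD nerves. Its 5 SD samples at 16 weeks had 5.6, 4.67, 6.38, 5.92 and 6.44, and the HFD samples ran from 5.08 to 10.8 (median 8.44). The 5 HFD-STZ samples had 4.62, 6.09, 4.9, 5.09 and 8.36, and 1 of them was above the highest SD sample. At 24 weeks the SD samples ran from 4.17 to 7.42 (median 5.76), and the HFD samples were all above them, from 9.44 to 11.19 (median 10.3). The HFD-STZ samples ran from 6.44 to 11.21 (median 8.94). The HFD-DR samples ran from 4.75 to 9.57 (median 5.9) and the HFD-STZ-DR samples from 5.13 to 6.85 (median 5.88). HFD-STZ-DR nerves thus lay within the range of SD nerves for Mmp12, whereas 2 HFD-DR samples, at 7.85 and 9.57, lay above it. The group means of Mmp12 ran, from high to low, HFD at 24 weeks, HFD-STZ at 24 weeks, HFD at 16 weeks, HFD-DR, HFD-STZ-DR, HFD-STZ at 16 weeks, SD at 16 weeks and SD at 24 weeks, again with overlapping samples in every pair of neighbours.

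**Figure D1:**
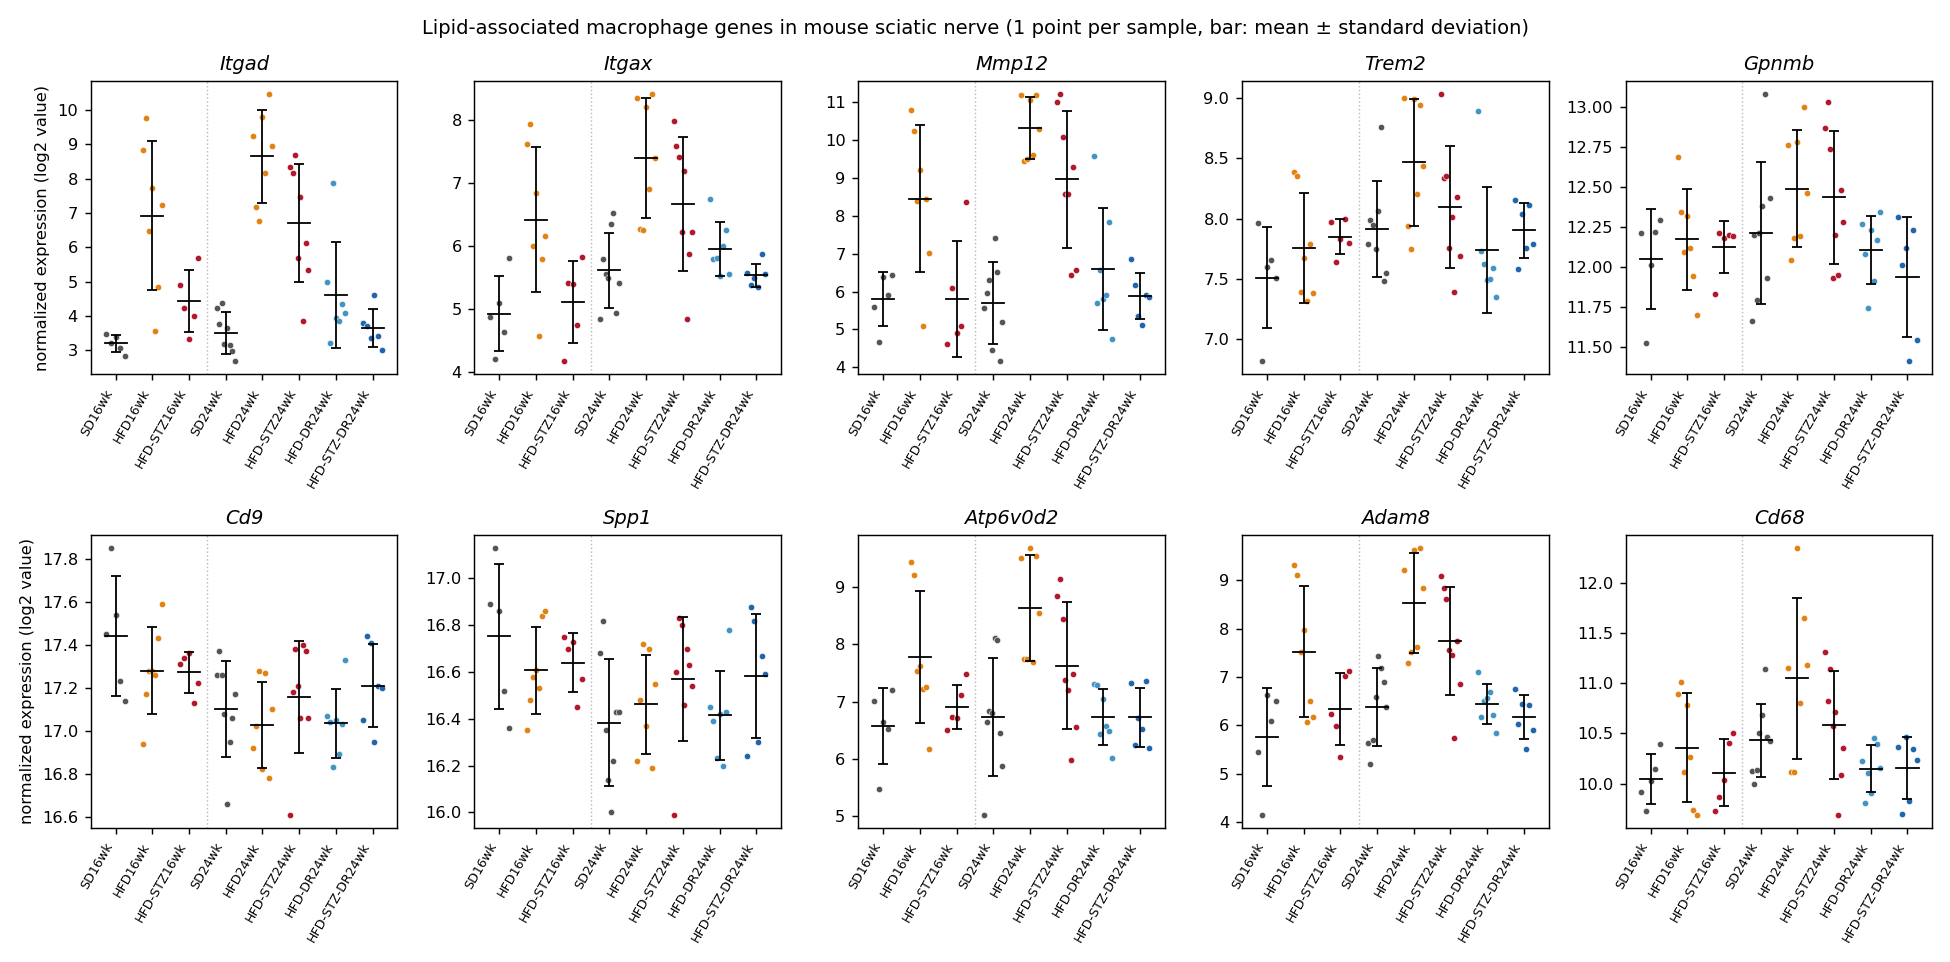
Normalized expression (log2 value, y axis, a separate scale for each gene) of the 10 genes in the 8 groups (x axis), with 1 point per sample and black bars for the mean ± standard deviation. At 24 weeks Itgad and Mmp12 show no overlap between SD and HFD samples, whereas all 53 samples lie between 16.61 and 17.85 for Cd9 and between 15.99 and 17.13 for Spp1.

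Itgax, Adam8 and Atp6v0d2 showed smaller differences in the same direction at 24 weeks. Itgax was 5.61 ± 0.60 over the 8 SD samples, 7.39 ± 0.95 over the 7 HFD samples and 6.66 ± 1.06 over the 8 HFD-STZ samples, and 5.95 ± 0.43 (n = 7) and 5.53 ± 0.19 (n = 6) after DR. Adam8 was 6.38 ± 0.80 over the 8 SD samples, 8.54 ± 1.04 over the 7 HFD samples and 7.74 ± 1.12 over the 8 HFD-STZ samples, and 6.44 ± 0.41 (n = 7) in HFD-DR nerves. The HFD samples of Adam8 ran from 7.28 to 9.67 and the HFD-DR samples from 5.85 to 7.11, so these groups did not overlap. For Atp6v0d2 the HFD samples ran from 7.69 to 9.68 and the HFD-DR samples from 6.01 to 7.31, also with no overlap, whereas the SD samples ran from 5.03 to 8.11. At 16 weeks the 5 SD samples of Itgax had 4.87, 4.2, 5.09, 4.63 and 5.8 and the 5 HFD-STZ samples 4.17, 5.4, 5.39, 4.74 and 5.82, which is close to the same range. Adam8 had 5.45, 4.15, 6.63, 6.08 and 6.5 in the SD and 6.24, 5.98, 5.34, 7.02 and 7.12 in the HFD-STZ samples. Atp6v0d2 had 7.01, 5.48, 6.65, 6.53 and 7.2 in the SD and 6.5, 6.74, 6.71, 7.11 and 7.48 in the HFD-STZ samples. The HFD-STZ samples thus overlapped SD for all 3 genes. The HFD samples of that age spanned 4.56 to 7.93 (Itgax), 6.07 to 9.32 (Adam8) and 6.18 to 9.43 (Atp6v0d2), each overlapping SD.

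Trem2, Gpnmb and Cd68 had small differences by diet. Trem2 at 24 weeks was 7.92 ± 0.40 over the 8 SD samples, 8.46 ± 0.52 over the 7 HFD samples and 7.74 ± 0.52 over the 7 HFD-DR samples. Cd68 was 10.43 ± 0.36 (n = 8), 11.05 ± 0.80 (n = 7) and 10.15 ± 0.23 (n = 7) in the same groups. Gpnmb was 12.21 ± 0.45 (n = 8), 12.48 ± 0.37 (n = 7) and 12.11 ± 0.22 (n = 7). For all 3, the HFD samples overlapped both SD and HFD-DR samples. The highest group mean of each of these genes was nevertheless that of HFD at 24 weeks, as it was for Itgad, Itgax, Mmp12, Adam8 and Atp6v0d2.

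Cd9 and Spp1 did not follow the other members. Their group means covered 0.41 and 0.37 on the log2 scale, against 5.44 for Itgad and 4.62 for Mmp12, and the highest mean of both was in SD nerves at 16 weeks. Per kilobase of exon they ranked 8 and 14 of 17556 genes in SD nerves at 24 weeks. Over the 53 samples their Pearson r with the mean of the 6 Schwann cell markers was 0.87 (Cd9) and 0.78 (Spp1), and 0.85 and 0.81 once each group's mean was subtracted. The other 8 members had negative r with these markers, from -0.65 (Cd68) to -0.42 (Gpnmb). Cd9 is a known component of Schwann cells, and Spp1 is also made by them. In the whole nerve, the levels of these 2 genes thus followed Schwann cell markers and not the other members of the list.

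The question that the first comparisons address is what each diet did and whether DR undid it. All these comparisons helped choose the genes. Counts of members past a threshold are printed beside the share of all genes, as a description of values that the choice had already used, and nothing is read from them. The values are differences of group means with the standard error (SE) of the fit. All 10 genes passed the filter on low values in every comparison. Itgad, whose mean of 3.20 in SD nerves at 16 weeks is under the filter of 3.32, entered the comparisons with that group only through the samples of the other group. Between HFD and SD nerves at 24 weeks, Itgad was higher by 5.14 (SE 0.48), which is 35.3-fold on the linear scale, and Mmp12 by 4.62 (SE 0.45), or 24.6-fold. Adam8 was higher by 2.16 (SE 0.43), Atp6v0d2 by 1.91 (SE 0.46) and Itgax by 1.79 (SE 0.37). The differences of Cd68 (0.62, SE 0.28), Trem2 (0.55, SE 0.22) and Gpnmb (0.27, SE 0.19) were smaller. Those of Spp1 (0.08, SE 0.13) and Cd9 (-0.07, SE 0.12) were below their errors. The median difference of the 10 genes was 1.21, against 0.01 for all genes tested. In limma's moderated test with Benjamini-Hochberg adjustment over 18191 genes, the count past an adjusted p of 0.05 with higher values was 2 members (Itgad and Mmp12), beside 0.11% of all genes. It was 5 with all 8 groups in 1 fit, with or without a term for runs of library numbers that follow each other. Over all genes, 68 without and 104 with that term passed in either direction, against 22 of 18191 in the fit of these groups alone. For 2 members the groups did not overlap with HFD higher, as for 0.181% of all genes.

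In the T2D model at 24 weeks the same 5 genes led with smaller differences from SD. Mmp12 was higher by 3.27 (SE 0.68), Itgad by 3.21 (SE 0.59), Adam8 by 1.36 (SE 0.45), Itgax by 1.05 (SE 0.40) and Atp6v0d2 by 0.90 (SE 0.49). The other 5 members differed by 0.22 or less. The median over the 10 genes was 0.56, against 0.00 for all genes. No member passed the adjusted threshold, which 0.0336% of all genes passed with higher values, and 4 of 10 had an unadjusted p under 0.05 with higher values, as 3.3% of all genes did. With all groups in 1 fit, with or without the runs, 2 members were past the adjusted threshold. Over all genes, 16 without and 17 with the runs passed in either direction, against 6 of 17846 in the fit of these groups alone. Both models are compared with the same 8 SD samples, so their likeness is not independent.

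At 16 weeks both models were compared with the same 5 SD samples. HFD nerves had higher Itgad by 3.71 (SE 0.86), Mmp12 by 2.65 (SE 0.80), Adam8 by 1.76 (SE 0.62), Itgax by 1.50 (SE 0.50) and Atp6v0d2 by 1.21 (SE 0.51) than SD nerves. No member was past the adjusted threshold, which 0.00557% of all genes passed with higher values. With all groups in 1 fit, with or without the runs, 1 was past it. Over all genes, 7 without and 17 with the runs passed in either direction, against 1 of 17962 in the fit of these groups alone. The 5 members named above had an unadjusted p under 0.05, as did 4.98% of all genes with higher values. Itgad was the member whose groups did not overlap, as for 0.317% of all genes. In HFD-STZ nerves, Itgad was higher by 1.23 (SE 0.38), whereas Mmp12 differed by 0.01 (SE 0.64), Itgax by 0.19 (SE 0.35) and Adam8 by 0.58 (SE 0.48). Of the 10 members, none was past the adjusted threshold and 1, Itgad, had an unadjusted p under 0.05, beside 0% and 3.99% of all genes with higher values. The median difference of the members was 0.76 in HFD and 0.14 in HFD-STZ nerves.

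After DR the 5 leading genes had lower means in both models. In HFD-DR against HFD nerves the difference was -4.03 (SE 0.69) for Itgad, -3.73 (SE 0.61) for Mmp12, -2.09 (SE 0.38) for Adam8, -1.90 (SE 0.36) for Atp6v0d2 and -1.44 (SE 0.36) for Itgax. Cd68 differed by -0.90 (SE 0.28), Trem2 by -0.73 (SE 0.25) and Gpnmb by -0.38 (SE 0.15). No member passed the adjusted threshold, which 0.0108% of all genes passed with lower values, but 2 did with all groups in 1 fit and 4 with the runs as a term as well. Over all genes, 18 without and 30 with the runs passed in either direction, against 2 of 18475 in the fit of these groups alone. Lower values with an unadjusted p under 0.05 were found for 8 members and for 4.57% of all genes. Adam8 and Atp6v0d2 were the members with no overlap, as for 0.119% of all genes. In HFD-STZ-DR against HFD-STZ nerves the differences were -3.09 (SE 0.70) for Mmp12, -3.06 (SE 0.66) for Itgad, -1.56 (SE 0.44) for Adam8, -1.13 (SE 0.41) for Itgax, -0.90 (SE 0.45) for Atp6v0d2 and -0.50 (SE 0.20) for Gpnmb. Here too no member passed the adjusted threshold (0.084% of all genes, with lower values), and 2 did with all groups in 1 fit, with or without the runs. Over all genes, 47 without and 32 with the runs passed in either direction, against 15 of 17862 in the fit of these groups alone. At an unadjusted p under 0.05, 5 members were lower (Mmp12, Itgad, Adam8, Itgax and Gpnmb), beside 4.51% of all genes. The median differences of the 10 genes were -1.17 and -0.70, against 0.00 and 0.01 for all genes.

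**Figure D2:**
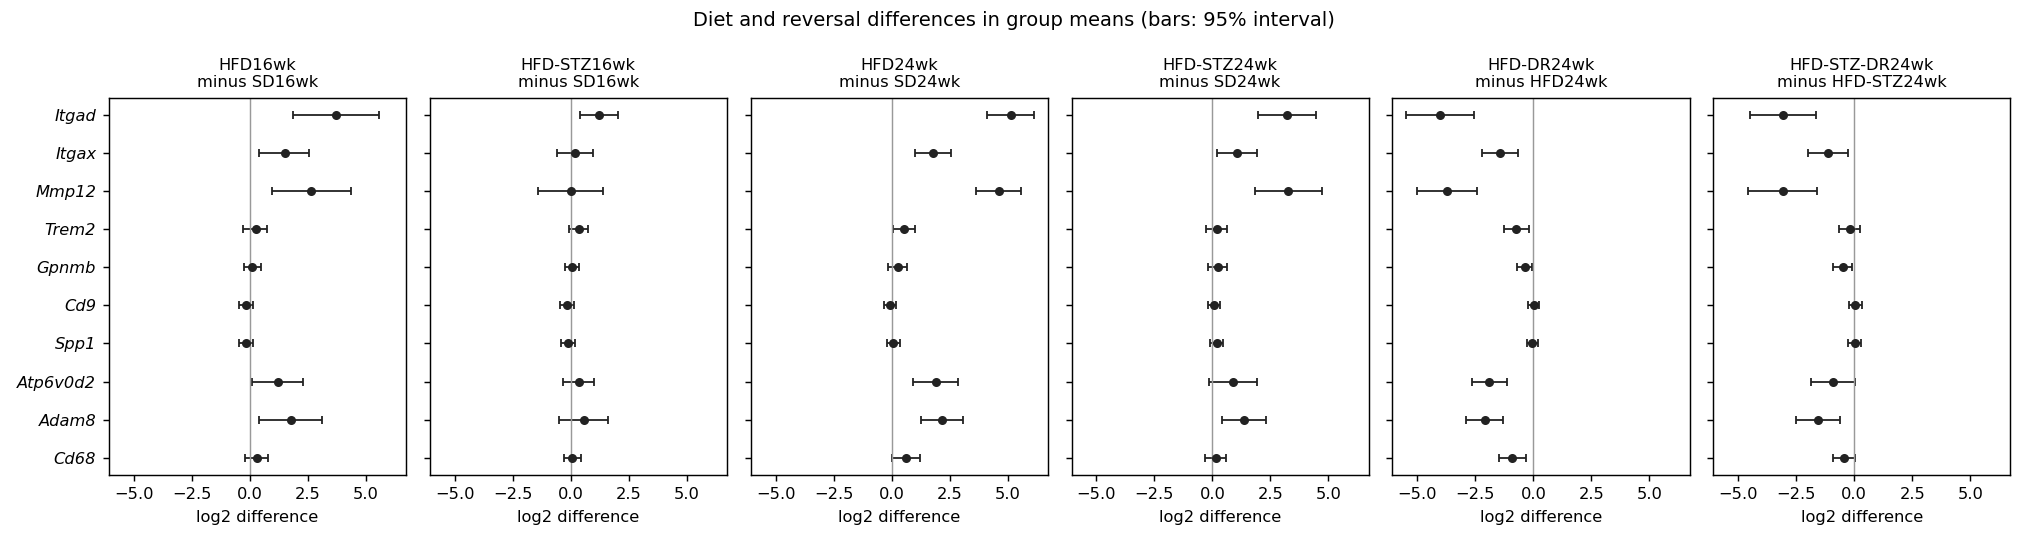
Differences of group means (log2, x axis) for the 10 genes (y axis) in the 4 diet and 2 reversal comparisons, with 95% intervals of the fit. Itgad and Mmp12 have the longest distances from 0 in 5 of the 6 panels, the exception being Mmp12 in HFD-STZ nerves at 16 weeks (0.01), and Cd9 and Spp1 lie within 0.19 of 0 in all 6.

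Differences were also taken within runs of consecutive library numbers, over which each group was spread. Itgad was higher in HFD than in SD nerves in 7 of 7 runs at 24 weeks, by 2.80 to 7.46, and Mmp12 in 7 of 7, by 3.06 to 7.01. Itgax and Adam8 were higher there in 7 of 7 runs and Atp6v0d2 in 6 of 7, the lowest difference being -0.38. In HFD-STZ nerves at 24 weeks Itgad was higher in 8 of 8 runs, Mmp12, Itgax and Adam8 in 7 of 8 and Atp6v0d2 in 6 of 8, with lowest differences of -1.69 for Itgax, -1.45 for Adam8 and -2.08 for Atp6v0d2. In HFD nerves at 16 weeks Itgad was higher in 5 of 5 runs, Mmp12, Itgax and Atp6v0d2 in 4 of 5 and Adam8 in 3 of 5. In HFD-STZ nerves at 16 weeks Itgad and Adam8 were higher in 4 of 4 runs, Atp6v0d2 in 3 of 4, and Mmp12 and Itgax in 2 of 4. After DR Mmp12 was lower in 6 of 6 runs in both models, and Itgax, Adam8 and Atp6v0d2 in 6 of 6 in the prediabetic and in 5 of 6 in the T2D model. Itgad was lower in 6 of 6 runs in the T2D model and in 5 of 6 in the prediabetic model, the remaining run holding the HFD-DR sample at 7.88.

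The comparisons that follow were not named in the choice of genes, although they use the same samples. Those of STZ on HFD and of DR nerves against SD are set by diet and reversal differences that the choice had used. Their values, intervals and counts are thus also a description, with no independent weight. The age comparisons share groups with the choice but are not fixed by it in this way. The first asks what STZ added to the HFD. At 16 weeks, HFD-STZ nerves had lower means than HFD nerves for Mmp12 (-2.64, 95% interval -4.56 to -0.73), Itgad (-2.49, -4.39 to -0.58) and Itgax (-1.31, -2.38 to -0.23). None passed the adjusted threshold of limma's test (adjusted p = 0.987 for each), nor did any other gene (0%). An unadjusted p under 0.05 with lower values was found for these 3 members and for 2.9% of all genes. At 24 weeks, Itgad differed by -1.93 (95% interval -3.48 to -0.39, adjusted p = 0.785 in limma's test) and Mmp12 by -1.35 (-2.78 to 0.08, adjusted p = 0.785). Of the 10 members, 0 passed and 1 was lower at an unadjusted p under 0.05, beside 0% and 4.17% of all genes. The intervals leave room for a difference of more than 2 log2 units in both genes, so these data do not show the models to be alike.

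The second asks how close DR brought the nerves to SD. No member passed the adjusted threshold in either model, nor did any gene (0% in both), and 0 members had an unadjusted p under 0.05, beside 5.14% of all genes in HFD-DR and 9.16% in HFD-STZ-DR nerves. In HFD-DR nerves Itgad differed from SD by 1.11 (95% interval -0.02 to 2.25, adjusted p = 0.925 in limma's test) and Mmp12 by 0.90 (-0.45 to 2.24, adjusted p = 0.935). Without HFD-DR replicate 3 the value of Itgad was 0.57, and without HFD-DR replicate 1 that of Mmp12 was 0.40. In HFD-STZ-DR nerves Itgad differed from SD by 0.15 (-0.49 to 0.78, adjusted p = 0.94) and Mmp12 by 0.18 (-0.78 to 1.14, adjusted p = 0.952). Leaving out 1 sample took these values as low as -0.04 for both genes. Adam8 differed by 0.07 (-0.59 to 0.73) in HFD-DR and by -0.20 (-0.92 to 0.52) in HFD-STZ-DR nerves, and Atp6v0d2 by 0.01 (-0.82 to 0.83) and 0.00 (-0.89 to 0.90). The median difference of the 10 genes was 0.02 in HFD-DR and 0.00 in HFD-STZ-DR nerves. Between HFD-STZ-DR and HFD-DR nerves, 0 members passed (0% of all genes) and 1, Itgax, was lower at an unadjusted p under 0.05 (-0.42, SE 0.19, adjusted p = 0.999 in limma's test), as were 2.1% of all genes.

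The third is age. Between 16 and 24 weeks, HFD nerves had higher Mmp12 by 1.87 (95% interval 0.37 to 3.36, adjusted p = 0.793 in limma's test), Itgad by 1.73 (-0.08 to 3.53, adjusted p = 0.849) Trem2 by 0.71 (0.20 to 1.22, adjusted p = 0.742) and Cd68 by 0.70 (0.01 to 1.38, adjusted p = 0.842). HFD-STZ nerves had higher Mmp12 by 3.16 (1.28 to 5.04, adjusted p = 0.289), Itgad by 2.28 (0.67 to 3.89, adjusted p = 0.293), Itgax by 1.56 (0.52 to 2.59, adjusted p = 0.289) and Adam8 by 1.40 (0.30 to 2.50, adjusted p = 0.317). No member passed, beside 0% of all genes with higher values in either model. At an unadjusted p under 0.05, 3 members, Mmp12, Trem2 and Cd68, were higher (2.68% of all genes) and 1, Cd9, lower (-0.25, against 3.22% of all genes) in HFD nerves, and 4 were higher in HFD-STZ nerves (5.85%). In SD nerves 2 members were higher, Itgax by 0.69 and Cd68 by 0.39, and 2 lower, Spp1 (-0.37) and Cd9 (-0.34), with 0 past the adjusted threshold (0% of all genes), beside 5.43% and 5.04% of all genes at an unadjusted p under 0.05.

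Whether an effect itself changed was tested with interactions, which are built from comparisons used in the choice. The HFD effect on Mmp12 was larger at 24 than at 16 weeks by 1.97 (SE 0.93) and that on Itgad by 1.43 (SE 0.99), with an adjusted p of 1 for both in limma's test. The HFD-STZ effect was larger at 24 weeks by 3.26 (SE 1.05) for Mmp12 and by 1.98 (SE 0.84) for Itgad, with an adjusted p of 0.756 for both. The effect of DR differed between the models by 0.97 (SE 1.01) for Itgad and by 0.64 (SE 0.98) for Mmp12, with an adjusted p of 1. No member and no gene (0%) passed in any of the 3, and at an unadjusted p under 0.05 there was 1 member for the HFD effect by age (1.67% of all genes in either direction), 2 with positive values for the HFD-STZ effect by age (2.09%) and 0 for the DR effect by STZ (1.71% in either direction).

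**Figure D3:**
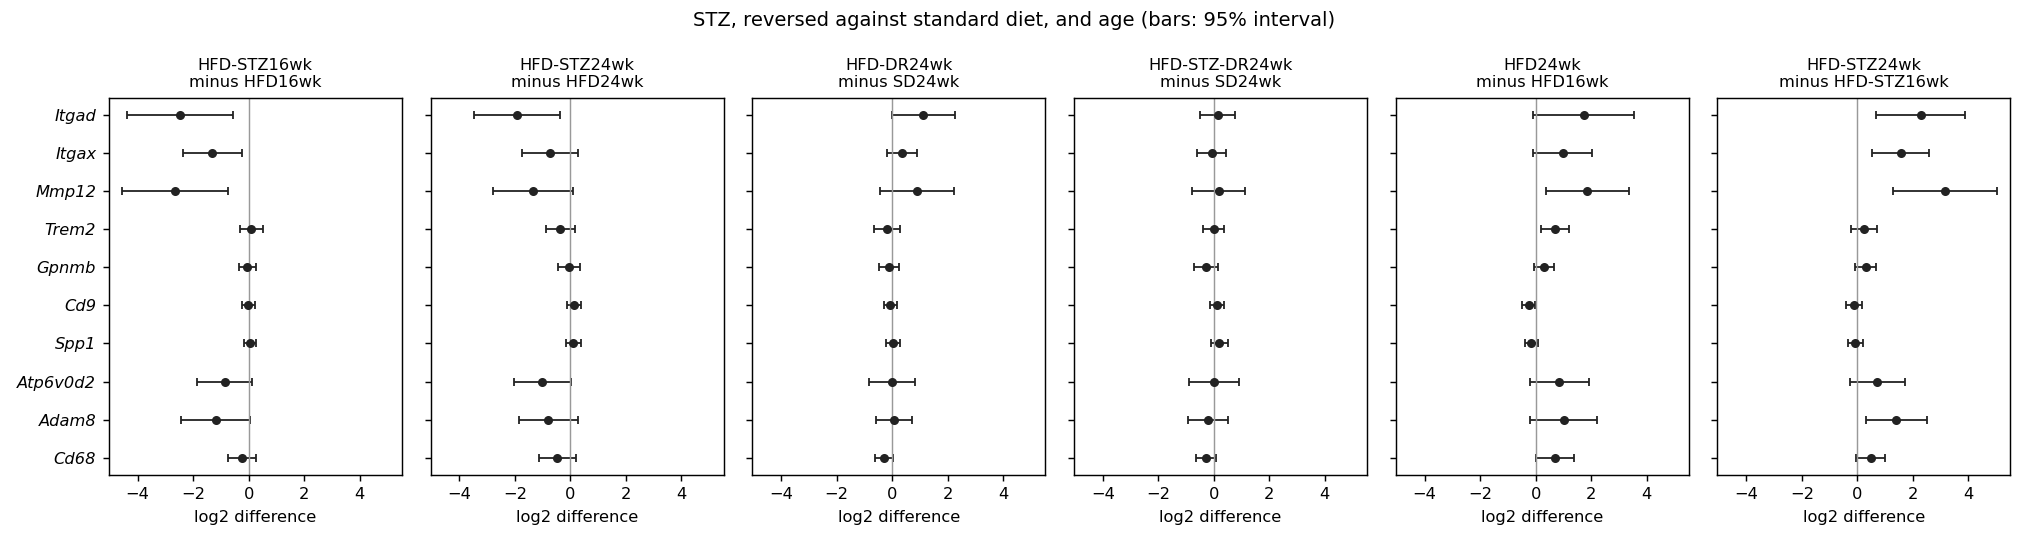
Differences of group means (log2, x axis) for the 10 genes (y axis) for STZ on HFD at 16 and 24 weeks, for the DR groups against SD, and for age in HFD and HFD-STZ nerves, with 95% intervals. The DR groups sit near 0 for most genes, with HFD-DR at 1.11 for Itgad, and for STZ and age the longest intervals are those of Itgad and Mmp12.

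In the groups still on HFD the same samples were high for many members. In HFD-STZ nerves at 16 weeks, replicate 5 was the highest of 5 for Itgad, Itgax, Mmp12, Atp6v0d2, Adam8 and Cd68, but not for Trem2 and Gpnmb. In HFD nerves at 16 weeks, samples 1 and 2 were the 2 highest of 7 for Itgad, Mmp12, Itgax, Adam8, Atp6v0d2, Trem2, Gpnmb and Cd68. In HFD nerves at 24 weeks, samples 1, 4 and 6 were the 3 highest of 7 for these genes apart from Cd68. In HFD-STZ nerves at 24 weeks, samples 1, 2 and 3 were the 3 highest of 8 for all 8 genes, and sample 6 was the lowest for 7 of them. Over the 53 samples, the 28 pairs of these 8 genes had Pearson r from 0.46 to 0.90, and from 0.29 to 0.85 once group means were subtracted. The 16 pairs of Cd9 or Spp1 with one of them had r from -0.58 to -0.17. These r are descriptions over samples that share groups and a normalization.

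**Figure D4:**
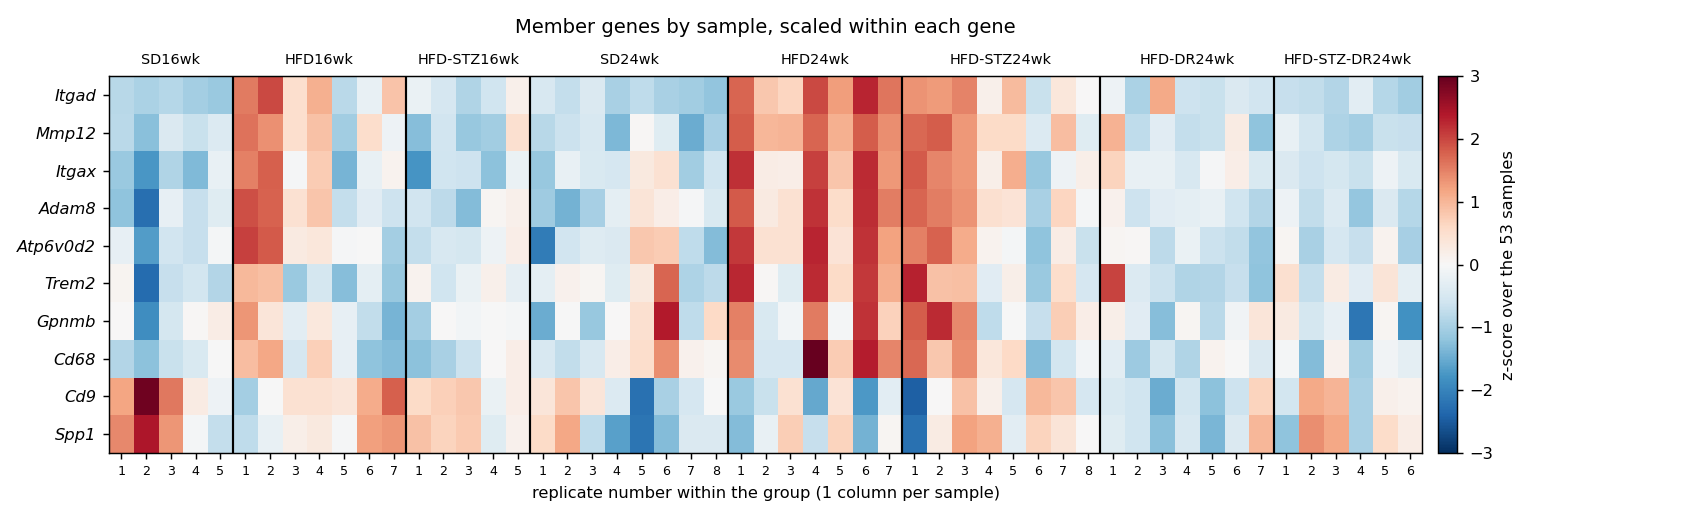
Values of the 10 genes (rows) in the 53 samples (columns, by group and replicate number), as z-scores within each gene over all samples. The same columns are red for the upper 8 genes, among them samples 1, 4 and 6 of HFD at 24 weeks, whereas Cd9 and Spp1 tend to be blue there.

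In the SD and DR groups, the sample with the highest Itgad was not the highest for most other members. In HFD-STZ-DR nerves replicate 4 was the highest of 6 for Itgad and the lowest for Itgax, Mmp12, Gpnmb and Adam8. In SD nerves at 16 weeks replicate 5 was the lowest of 5 for Itgad and the highest for Itgax, Mmp12, Gpnmb, Atp6v0d2 and Cd68. In HFD-DR nerves the sample with the most Itgad (replicate 3, 7.88) was the lowest of 7 for Gpnmb and had 2 samples above it for Mmp12. Another sample, replicate 1, was the highest for Itgax, Mmp12, Trem2, Atp6v0d2 and Adam8, with 9.57 for Mmp12 and 8.89 for Trem2, and had 4.99 for Itgad. The highest value in HFD-DR nerves thus came from another sample for Itgad than for these 5 genes.

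In HFD nerves, markers of adipocytes were high in the samples where the 5 leading members were high. In the 6 diet and reversal comparisons, group means differed more in these markers than in general macrophage markers. Over the 53 samples, r with the mean of the adipocyte markers was 0.60 for Itgad and 0.61 for Mmp12, and with the mean of the macrophage markers 0.33 and 0.34. Cd68 had r = 0.73 with the adipocyte and 0.83 with the macrophage markers, and Gpnmb had 0.54 with both. The mean log2 value of 6 adipocyte markers was 13.45, 13.77 and 13.73 in samples 1, 4 and 6 of HFD at 24 weeks and between 11.13 and 12.65 in the other 4. It was 13.19 and 13.59 in samples 1 and 2 of HFD at 16 weeks and between 10.94 and 12.43 in the other 5. Not every sample with high adipocyte markers was among the highest of its group for Itgad. At 24 weeks, HFD-STZ replicate 8 had 13.02 with Itgad at 5.35, and SD replicate 8 had 12.99 with Itgad at 2.69. The value of 5.35 was still above every SD sample of that age, the highest being 4.37. Between groups the mean of the adipocyte markers was higher by 2.19 in HFD than in SD nerves at 16 weeks and by 0.56 at 24 weeks. It differed by -1.06 in HFD-DR and by -2.16 in HFD-STZ-DR nerves from their disease groups. It was also higher by 1.85 in SD nerves at 24 than at 16 weeks, where Itgad differed by 0.30 and Mmp12 by -0.10. The part of adipocytes in the differences of the members was not tested. Of the 6 adipocyte markers, 4 were higher in HFD than in SD nerves at 24 weeks. Summed over the 6, the mean log2 level was lower in HFD (15.48, from 14.02 to 16.78) than in SD nerves (15.67, from 13.84 to 16.58) at that age. The macrophage markers differed by 0.06 at 16 and by 0.13 at 24 weeks between HFD and SD, and by -0.27 and -0.21 after DR. Their summed log2 level ran from 12.91 to 13.88 in SD and from 13.17 to 14.11 in HFD nerves at 24 weeks. No marker of any list passed the adjusted threshold in any comparison in limma's test, and of the 6 macrophage markers 0 had an unadjusted p under 0.05 between HFD and SD nerves at 24 weeks, beside 9.05% of all genes.

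With the adipocyte markers as a covariate, the HFD difference at 24 weeks was 4.79 (SE 0.39) for Itgad and 4.23 (SE 0.32) for Mmp12, and with the macrophage markers 5.00 (SE 0.46) and 4.55 (SE 0.46). The reversal in the T2D model was smaller with the adipocyte covariate, at -1.55 (SE 0.81) for Itgad, -2.02 (SE 0.96) for Mmp12, -0.57 (SE 0.55) for Adam8 and 0.00 (SE 0.43) for Itgax. The HFD difference of Adam8 at 16 weeks was 0.40 (SE 0.63) with it, against 1.76 without. In HFD-DR nerves the values with it were -3.13 (SE 0.56) for Itgad and -2.91 (SE 0.48) for Mmp12. Markers of skeletal muscle had a median difference of -1.68 between HFD and SD nerves at 24 weeks and of 2.93 between HFD-DR and HFD nerves, and their part in the differences of the members was not tested. Neutrophil markers had a median difference of 1.46 at 16 weeks and 0.68 at 24 weeks between HFD and SD nerves, and dendritic cell markers 0.28 and 0.38. Over the 53 samples the dendritic cell markers had r between 0.62 and 0.87 with the 8 members other than Cd9 and Spp1. At 24 weeks the median difference between HFD and SD nerves was 0.29 for T cell, 0.78 for B and plasma cell, 0.15 for mast cell and -0.14 for Schwann cell markers. Between HFD-DR and HFD nerves it was -0.93 for mast cell markers, of which 4 of 4 were lower at an unadjusted p under 0.05 (4.57% of all genes), -0.63 for neutrophil, -0.43 for dendritic cell, -0.36 for B and plasma cell and -0.12 for T cell markers. Between HFD-STZ-DR and HFD-STZ nerves it was -0.26 for mast cell, 0.02 for neutrophil and -0.16 for dendritic cell markers. The part of these cells was not tested.

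**Figure D5:**
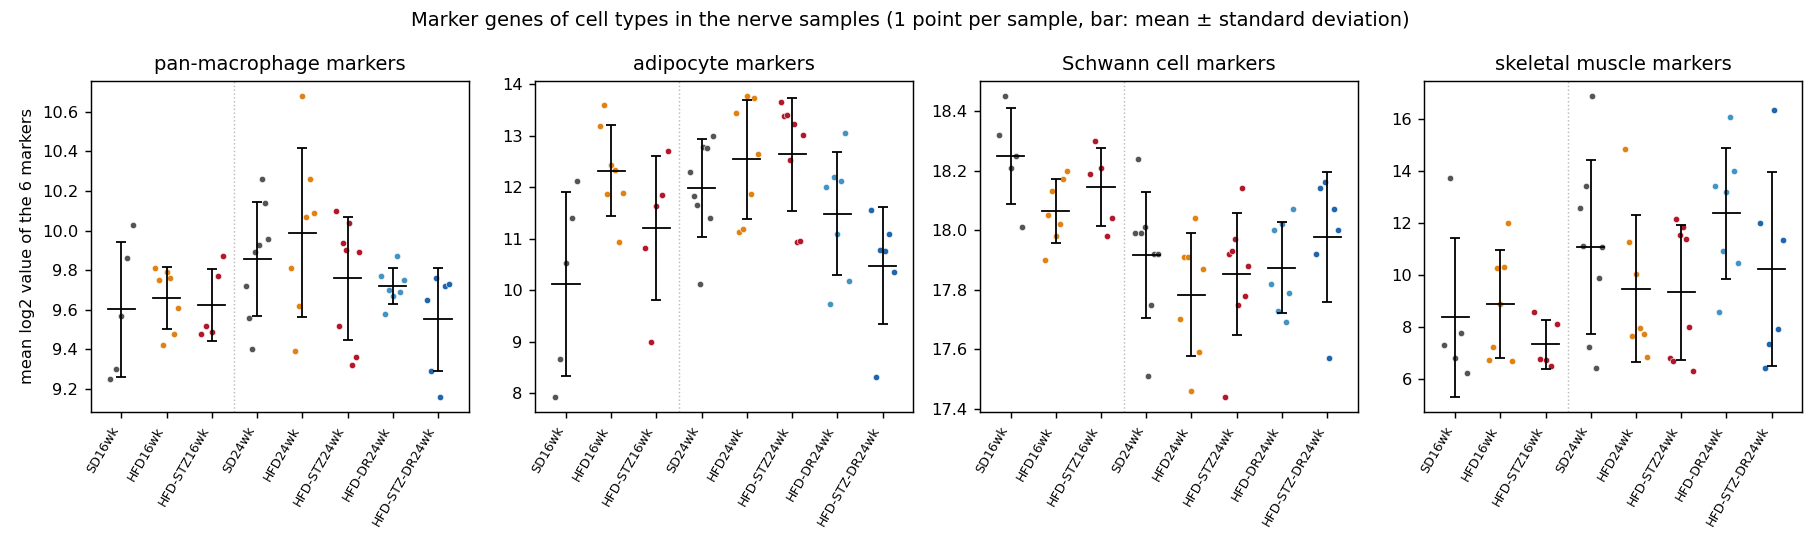
Mean log2 value of 6 markers each of macrophages, adipocytes, Schwann cells and skeletal muscle (y axis, a separate scale in each panel) by group (x axis), with 1 point per sample and black bars for the mean ± standard deviation. Macrophage markers differ between SD and HFD at 24 weeks by 0.13 and adipocyte markers by 0.56, and muscle markers spread widest within groups.

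Between HFD and SD nerves at 24 weeks, other genes of the pathway had smaller differences than the 5 leading members. The members were chosen with their differences in this comparison known, so nothing is read from this order. Of 18 further genes of lipid-associated macrophages, all were tested and 0 passed the adjusted threshold in limma's test between HFD and SD nerves at 24 weeks. Of them, 5 were higher at an unadjusted p under 0.05, beside 5.54% of all genes, and their median difference was 0.24. The largest were Fabp4, a fatty acid carrier that adipocytes also make (1.08, SE 0.49, adjusted p = 0.533), and the fatty acid receptor Cd36 (1.02, SE 0.43, adjusted p = 0.505). After DR, 11 of the 18 were lower in HFD-DR and 12 in HFD-STZ-DR nerves at an unadjusted p under 0.05, beside 4.57% and 4.51% of all genes, with median differences of -0.36 and -0.35. Of 10 genes of Trem2 signalling, 0 passed and 2 were higher at an unadjusted p, Tyrobp, the adaptor through which Trem2 signals (0.50, SE 0.20, adjusted p = 0.461), and the fungal sugar receptor Clec7a (0.50, SE 0.21, adjusted p = 0.512).

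The beta-2 integrin chain Itgb2, the partner of Itgad and Itgax, was higher in HFD than in SD nerves at 24 weeks by 0.82 (SE 0.28, adjusted p = 0.375 in limma's test). The alpha chains Itgam (0.58, SE 0.39, adjusted p = 0.662) and Itgal (0.08, SE 0.34, adjusted p = 0.958) of the same family differed less. After DR the differences in the prediabetic model were -0.89 (SE 0.24) for Itgb2, -0.85 (SE 0.34) for Itgam and -0.14 (SE 0.33) for Itgal. Of 7 genes of macrophage fusion and bone resorption, a programme that also uses Atp6v0d2, 5 were tested and 0 passed, and 1 was higher at an unadjusted p under 0.05, beside 5.54% of all genes. Dcstamp, which is needed for cell fusion, was higher by 0.91 (SE 0.29, adjusted p = 0.324) and Ctsk, a collagen-cleaving protease, by 0.34 (SE 0.22, adjusted p = 0.647). The 17 other subunits of the proton pump had a median difference of 0.01 and 0 genes at an unadjusted p under 0.05, beside 9.05% of all genes. Among them Atp6v0a2 differed by -0.16 (SE 0.08, adjusted p = 0.573) and Atp6v1a by 0.16 (SE 0.08), against 1.91 for Atp6v0d2.

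The genes most like Itgad over the 53 samples, members left out, were Tph2, 1700047G03Rik, Ubd, Saa3 and Slc5a7, with Pearson r of 0.96, 0.95, 0.95, 0.94 and 0.93. With group means subtracted, r was between 0.84 and 0.89. The closest member, Mmp12, had r = 0.87, and 0.66 within groups. Tph2 codes for the enzyme of serotonin synthesis in neurons, Slc5a7 for the choline transporter, Ubd for a ubiquitin-like protein and Saa3 for an acute-phase protein. Tph2 was 3.76 ± 0.40 over the 8 SD samples, 9.18 ± 1.23 over the 7 HFD samples and 4.65 ± 1.34 over the 7 HFD-DR samples at 24 weeks. The mean z-score of the 10 members was most like Ubd (r = 0.90), Lgals3 (0.88), Oxtr (0.88), Clec4d (0.87) and Gm20056 (0.87). Lgals3 codes for galectin-3, which lipid-laden macrophages make, and Clec4d for a lectin of myeloid cells. Oxtr codes for the oxytocin receptor.

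Some reads of the members may belong to other genes. Itgad and Itgax share 3.64% and 3.70% of the 100-base stretches of their longest transcripts. Itgad also overlaps Cox6a2, a muscle gene on the opposite strand, over 70 exonic bases (1.55% of its exons), and the libraries were described as non-stranded. Cox6a2 was 8.02 in SD, 6.41 in HFD and 8.94 in HFD-DR nerves at 24 weeks, and its r with Itgad over the 53 samples was -0.02. A further gene on that strand, 4931431B13Rik, shares 388 exonic bases (8.6%) and was at 0.09 in SD and 0.34 in HFD nerves. Mmp12 overlaps Mmp1b over 157 exonic bases (2.17%), and Mmp1b was at 0.24 in SD and 0.41 in HFD nerves. Spp1 overlaps the predicted gene Gm42793 over 18.8% of its exonic bases.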

How the data were processed

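RNA-seq values of 53 sciatic nerve samples were used. Per the labels and the study's methods, the authors aligned reads to mm10 with HISAT2, counted them with featureCounts and used DESeq2. The deposited values, 1 per gene and sample, are on a log2 scale, with a normalization that is not given in the sources used here. They are not counts, so models of counts were not used. The study's methods give an approximate number of reads per sample, but the depth of each sample is unknown. The labels name Trizol and a TruSeq kit, whereas the methods name RNeasy and a non-stranded SMART-Seq kit.

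For each comparison, limma 3.58.1 (R 4.3.3) was run on the samples of the groups compared, the variance prior depending on mean expression. A gene entered the test if its mean log2 value was at least 3.32, or 10 on the linear scale, and 25 genes reaching past 22 were dropped. Adjusted p-values are Benjamini-Hochberg values across the whole set of genes tested, read at 0.05. Intervals are those of the fit. The procedure was tested on simulated data. Alternatives were other filters, priors and centring, all groups in 1 fit, the run of library numbers, marker covariates and leaving out each sample.

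The 10 members, the other gene lists and the marker lists were chosen with earlier results of these data known. Named genes are the members, any list gene past the threshold, the 2 genes of each list with the largest difference between HFD and SD nerves at 24 weeks, all genes of lists of up to 4, and the 5 most like Itgad or the members' mean z-score. Cox6a2, 4931431B13Rik, Mmp1b and Gm42793 overlap members and were added outside this rule, with their values known. Gene models are GENCODE M21 (GRCm38), and 97.2% of the genes passing the filter over all samples had a length and were ranked per kilobase. Replicate numbers are accession order. Figures were drawn with matplotlib 3.10.9.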

Additional observations from a re-analysis of the deposited data

Results flagged for a closer look

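In 7 of 80 sets of values (10 genes in 8 groups), the highest or lowest sample stood apart from the rest of its group by Dixon's test, which chance alone does for about 1 in 20. In HFD-DR nerves, Itgad was 7.88 in replicate 3, the next sample being at 4.99, and Trem2 was 8.89 in replicate 1, the next being at 7.73. In the same group Spp1 was 16.78 in replicate 7 against 16.45. In SD nerves at 24 weeks Trem2 was 8.76 in replicate 6 against 8.06, and this sample was also the highest of its group for Itgax, Gpnmb and Cd68. In HFD-STZ nerves at 24 weeks, Cd9 was 16.61 and Spp1 15.99 in replicate 1, the nearest samples being at 17.06 and 16.46. That sample was the highest of the group for Itgax, Trem2, Adam8 and Cd68. In HFD-STZ nerves at 16 weeks, Gpnmb was 11.83 in replicate 1 against 12.18.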

How the results depend on the processing

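These counts describe comparisons that the choice of genes had used. The count of members past the adjusted threshold between HFD and SD nerves at 24 weeks, 2 as reported, was 5 with all 8 groups in 1 fit, with or without the run of library numbers, and 4 with centred samples or with the adipocyte or macrophage markers as a covariate. Calls over all genes rose as well, from 22 of 18191 to 68 and 104 in the all-groups fits. They were 41 of 18119 with centred samples, and 137 and 75 of 18191 with the adipocyte and the macrophage covariate. In the all-groups fits the added members were Itgax, Adam8 and Atp6v0d2. Leaving out 1 sample gave 2 to 4, with 4 without HFD replicate 2 or 3. Where the report has 0 members, the all-groups fit, without and with the runs, gave 1 and 1 for HFD against SD at 16 weeks, 2 and 2 for HFD-STZ against SD at 24 weeks, 2 and 4 for HFD-DR against HFD, with 2 and 2 for the reversal in the T2D model, and 1 with the runs for HFD-STZ at 24 against 16 weeks. Over all genes, that last fit had 30 of 17963 past the threshold, and the counts of the other all-groups fits are given with each comparison above. HFD-DR against HFD also gave 2 with centred samples and 1 with the adipocyte covariate, beside 8 of 18429 and 10 of 18475 genes. Leaving out 1 sample gave 0 to 3 in this comparison (3 without HFD replicate 2 and 1 without HFD-DR replicate 1 or 3), 0 to 2 for HFD-STZ against SD at 24 weeks and 0 to 3 for the reversal in the T2D model (the highest count of both without HFD-STZ replicate 6), and 0 in all other comparisons. For fits without 1 sample, the share of all genes past the threshold is not given, so nothing is read from their counts. The cause of these changes in count was not tested. The all-groups fits also used a larger number of samples, and its part was not tested either.

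Small differences changed sign. With the adipocyte covariate these were Gpnmb (-0.18), Cd9 (0.12), Spp1 (0.20) and Cd68 (-0.21) for HFD at 16 weeks, Mmp12 (-0.34), Spp1 (0.01) and Cd68 (-0.09) for HFD-STZ at 16 weeks, Cd68 (-0.05) for HFD-STZ at 24 weeks, Cd9 (-0.11) for HFD-DR, and Trem2 (0.29), Cd9 (-0.23), Spp1 (-0.24), Atp6v0d2 (0.19) and Cd68 (0.30) for HFD-STZ-DR. With the macrophage covariate they were Mmp12 (-0.05) for HFD-STZ at 16 weeks, Cd9 (-0.05) for HFD-DR, and Cd9 (-0.01) and Spp1 (-0.02) for HFD-STZ-DR. Mmp12 for HFD-STZ at 16 weeks was -0.01 with centred samples and -0.21 with all groups and runs. Without 1 sample, it ran from -0.63 to 0.31, Gpnmb from -0.06 to 0.15 and Cd68 from -0.03 to 0.16 in that comparison, Gpnmb from -0.01 to 0.20 for HFD at 16 weeks, Cd9 from -0.01 to 0.13 for HFD-STZ at 24 weeks and from -0.04 to 0.05 for HFD-DR, and Cd9 from -0.03 to 0.10 and Spp1 from -0.07 to 0.08 for HFD-STZ-DR. Of the members' values under the alternatives in the 6 diet and reversal comparisons, 1322 kept direction and side of the threshold, 46 moved past it, 41 changed sign and 0 fell below it. In the other comparisons 2884 kept both, 1 moved past the threshold and 108 changed sign. Without 1 sample, HFD-DR against SD ran from -0.23 to 0.21 for Atp6v0d2 and from -0.10 to 0.22 for Adam8, and HFD-STZ-DR against SD from -0.04 to 0.28 for Itgad and from -0.04 to 0.42 for Mmp12. Centring moved the median of all genes by at most 0.082. No paired analysis was possible because the labels carry no replicate numbers, and the runs of library numbers were used in their place, within runs and as a block.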
